A study of Rattus norvegicus with 34 samples.

Results

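The proteasome genes described here are the 46 genes on a rat Affymetrix expression array whose symbol is Psm, a letter from a to g and a number, out of 14217 genes that a probe set with a single symbol names. Of these, 44 encode subunits, activators, an inhibitor or assembly factors. The other two match by name only: Psmc3ip encodes a recombination factor and Psme3ip1 a protein named for binding an activator of the proteasome. Expression was measured on 34 arrays, 1 per sample. NRK-52E cells, an established epithelial line from rat kidney that the labels call proximal tubule cells of Osborne-Mendel genotype, were grown to confluence and kept for 6, 24 or 72 h with the solvent DMSO and, by their labels, monuron (a herbicide of the phenylurea class) or with DMSO alone, with 3 arrays labelled as biological replicates per treatment and time. All cell groups received DMSO at 0.1%. The design and protocol text for the cells names chlorothalonil at 1.1 µM and not monuron, so the treated cells are called monuron-labelled below and their compound and concentration are not settled. Male Wistar-derived rats of 7 to 9 weeks and 190 to 240 g received monuron in corn oil, 40 mg/kg on day 1 and 400 mg/kg on days 2 and 3, or corn oil alone at 5 ml/kg. Kidney and liver each gave 4 arrays from monuron rats and 4 from corn oil rats, labelled 72 h, which the protocol counts from the last dose.

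The proteasome degrades ubiquitin-tagged proteins. Its 20S core is a barrel of alpha rings around beta rings that hold the catalytic sites, and the 19S particle that caps it has a ring of ATPases that unfold substrates and non-ATPase subunits that bind and remove ubiquitin. Dedicated chaperones assemble both parts. Interferon induces the replacement of the catalytic beta subunits by those of the immunoproteasome, and the PA28 activator, both known for the production of peptides for antigen presentation. The array covered all 7 alpha subunits, the 4 beta subunits without a catalytic site, 2 of the 3 constitutive catalytic subunits (Psmb5 and Psmb7), all 3 of the immunoproteasome (Psmb8, Psmb9, Psmb10), 6 of 6 ATPases and 11 of 11 listed non-ATPase subunits of the 19S particle, and 7 assembly chaperones. Psmb6 and Psme3 have only probe sets that carry several symbols and were not analysed here. Counts of 19S subunits below cover those with a Psm symbol. Adrm1 and Sem1, also of the 19S particle, were read with the partners.

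All 46 genes entered every fit. They lay above the median of every array in kidney and liver, and in the cells 45 of 46 did, Psmb8 being the exception. Of 8 proximal tubule markers, only Ggt1 lay above the median on every array of a cell group, and it did not do so in DMSO cells at 72 h. None of 9 general kidney markers did in any cell group, so the labelled cell type was not borne out by these lists. Both kidney lists were above the median throughout in kidney, as were 8 of 8 hepatocyte markers in liver. Values below are log2 expression values, and differences are monuron minus control on that scale. A gene is called when its limma p-value, adjusted over all genes of the fit by the Benjamini-Hochberg method, is under 0.05, and "higher", "rose", "lower" and "fell" are used of called genes unless values alone are given. The replicates are compared with a spread shared by the groups of a fit, and the small number of arrays limits the precision.

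After 6 h, 15 of the 46 genes fell in monuron-labelled cells and none rose. This was 32.6% of them, against 3.02% of all 9042 genes tested that fell (6.31% were called in either direction, 3.3% higher). At an unadjusted p under 0.05, 29 were lower and 0 higher in the same limma fit. Over all 9042 genes, 1109 were lower and 992 higher at this threshold. The median difference was −0.23, against −0.02 over all genes. The lower genes were spread over the complex: 2 of 7 alpha subunits, 3 of 4 beta subunits without a catalytic site, 2 of 6 ATPases, 5 of 11 non-ATPase subunits of the 19S particle, the chaperones Psmd9 and Psmg4, and Psme2 of the PA28 activator. A bulk extract cannot tell fewer cells of a type from less RNA per cell.

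Psmd8, a 19S lid subunit, had 12.31, 12.21 and 12.27 on the monuron-labelled arrays at 6 h and 12.69, 12.58 and 12.62 on the DMSO arrays. Every DMSO array lay above every monuron-labelled one, and the difference was −0.37 ± 0.07 (SE, adjusted p = 0.00845). Psmd1, the large scaffold subunit of the 19S base, had 11.25, 11.12 and 11.15 against 11.70, 11.52 and 11.56 in DMSO cells, likewise without overlap (−0.42 ± 0.08, adjusted p = 0.00855). Psmd9, a chaperone of the ATPase ring, showed the lowest difference of the 46 genes: 9.34, 9.28 and 9.24 in monuron-labelled cells stood below 10.02, 9.66 and 9.71 in DMSO cells (−0.51 ± 0.13, adjusted p = 0.0257). The beta subunit Psmb1 had 13.64, 13.57 and 13.58 in monuron-labelled cells against 13.87, 13.83 and 13.86 in DMSO cells (−0.26 ± 0.05, adjusted p = 0.0127). The alpha subunit Psma5 had 13.40, 13.34 and 13.41 against 13.73, 13.59 and 13.68 (−0.28 ± 0.06, adjusted p = 0.0177), and Psmb3 had 12.99, 12.84 and 12.83 against 13.36, 13.21 and 13.10 (−0.34 ± 0.08, adjusted p = 0.0188). In all 3 core genes the treatments were apart, and Psmd13 of the lid fell by 0.34 on the log2 scale. Of the catalytic subunits, Psmb5, which carries the chymotrypsin-like site, had 13.35, 13.26 and 13.22 against 13.57, 13.50 and 13.33 in DMSO cells, with overlap (−0.19 ± 0.07, adjusted p = 0.101, and 0.0488 with the replicate number as a block). Psmb7, which carries the trypsin-like site, had 11.58, 11.62 and 11.58 against 12.12, 11.83 and 11.81, apart but not called (−0.33 ± 0.18, adjusted p = 0.295, and 0.0302 in the fit of only the groups compared). For 28 of the 46 genes all monuron-labelled arrays lay below all DMSO arrays, against 1852 of all 9042 genes (20.5%).

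The count at 6 h depended strongly on which array was left out. It was 0 without the monuron-labelled replicate 2, 2 without the monuron-labelled replicate 3, 2 without the DMSO replicate 1 and 7 without the DMSO replicate 2. The arrays of replicate 1 were the highest of their group for most members, 35 of 46 in monuron-labelled cells and 40 of 46 in DMSO cells. With the replicate number as a block, 23 genes were lower and 0 higher.

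**Figure D1:**
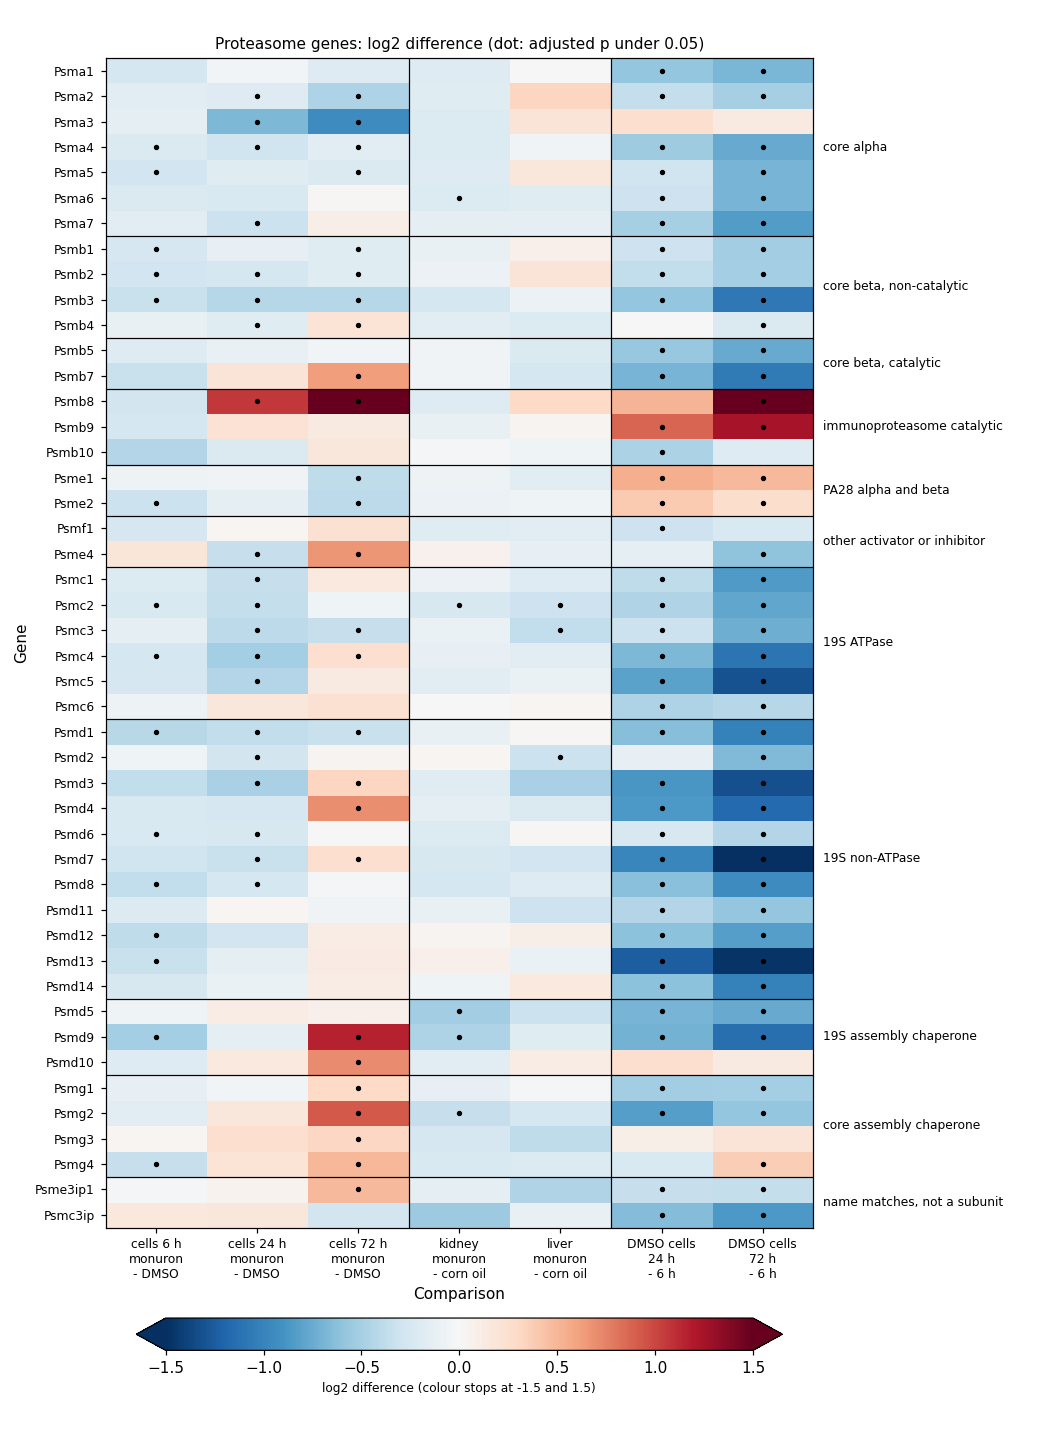
Colour shows the log2 difference of each of the 46 genes (rows, grouped by role) in 7 comparisons (columns): monuron-labelled minus DMSO cells at 6, 24 and 72 h, monuron minus corn oil in kidney and liver, and DMSO cells at 24 h and 72 h minus 6 h. A dot marks an adjusted p under 0.05. The columns for 6 h and 24 h are mostly blue with 15 and 19 lower calls, the 72 h column is mixed with 15 higher and 11 lower, and the DMSO column for 72 h minus 6 h is blue but for few genes, Psmb8 and Psmb9 among them.

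After 24 h, 19 genes were lower and 1, Psmb8, was higher in monuron-labelled cells. The lower genes made up 41.3% of the 46, against 7.14% of all genes (13.6% called, 6.43% higher), and the median difference was −0.18 against 0.00 over all genes. All monuron-labelled arrays lay below all DMSO arrays for 25 of the 46 genes, against 2258 of all 9042 genes (25%). They lay above them for 4 of the 46, against 24.4% of all genes. Of the 17 subunits of the 19S particle 11 fell, with 5 of 6 ATPases, and 7 of the 13 alpha and constitutive beta subunits fell too. None of the 7 assembly chaperones was called, and their median difference was 0.14.

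Psmc4, a 19S ATPase, had 11.45, 11.43 and 11.44 in monuron-labelled cells at 24 h against 12.01, 12.03 and 11.82 in DMSO cells. The difference of −0.52 ± 0.07, 0.70-fold, had the smallest adjusted p of the family at this time (0.000406). Psmc5, another ATPase, had 10.48, 10.39 and 10.48 against 10.98, 10.92 and 10.78 in DMSO cells (−0.44 ± 0.08, adjusted p = 0.00224). In neither gene did the treatments overlap. Psmc2 of the same ring had 13.14, 13.04 and 13.10 against 13.49, 13.47 and 13.38 in DMSO cells (−0.35 ± 0.06, adjusted p = 0.00237). Psmd2 of the 19S base had 12.60, 12.63 and 12.60 against 12.91, 12.87 and 12.87 (−0.27 ± 0.05, adjusted p = 0.00292), and the alpha subunit Psma4 had 11.73, 11.82 and 11.77 against 12.11, 11.99 and 12.10 (−0.30 ± 0.06, adjusted p = 0.00575). These 3 were lower on every monuron-labelled array too. Psmb3, a beta subunit without a catalytic site, had 12.17, 12.30 and 12.21 in monuron-labelled cells and 12.64, 12.68 and 12.62 in DMSO cells (−0.42 ± 0.08, adjusted p = 0.00319), again fully apart. Psmb5 had 12.74, 12.79 and 12.82 against 12.89, 12.80 and 12.99 (−0.11 ± 0.07, adjusted p = 0.283), and Psmb7 had 11.67, 11.46 and 11.10 against 11.17, 11.11 and 11.38 (0.19 ± 0.18, adjusted p = 0.512). In both catalytic genes the treatments overlapped. The 19 lower calls dropped to 10 without the monuron-labelled replicate 2, to 12 without the DMSO replicate 1 and to 10 without the DMSO replicate 2.

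After 72 h, 15 genes rose and 11 fell. Over all genes 30.7% rose and 30.9% fell (61.6% called), so that the members' 32.6% and 23.9% were near the background. Of the alpha subunits 4 of 7 fell and 0 rose in limma (5 lower and 0 higher at an unadjusted p under 0.05). At that unadjusted threshold 2979 of all 9042 genes were lower and 2941 higher. Of the beta subunits without a catalytic site 3 of 4 fell while Psmb4 rose. Of the 17 subunits of the 19S particle 4 rose and 2 fell. Of the 7 assembly chaperones 6 rose, Psmd5 being the one not called. The median difference was −0.18 for the 13 core subunits, 0.12 for the 19S subunits and 0.50 for the chaperones, against 0.01 over all genes. With every array centred on its median, 18 members were higher and 7 lower.

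Psma2, an alpha subunit, had 13.24, 13.26 and 13.15 in monuron-labelled cells at 72 h and 13.66, 13.79 and 13.57 in DMSO cells (−0.46 ± 0.06, adjusted p = 4.71e-06). Psmb3 had 11.77, 11.84 and 11.57 against 12.11, 12.19 and 12.16 (−0.43 ± 0.08, adjusted p = 0.000194). Both were lower on each monuron-labelled array. Psma3 differed by −0.94 ± 0.20 (adjusted p = 0.000771), with 9.61, 9.44 and 8.55 in monuron-labelled cells and 10.21, 10.28 and 9.93 in DMSO cells. The monuron-labelled replicate 3 was far below the rest. A probe set not used here carries Psma3 together with Psma3l, and whether a near copy shares the signal was not tested. Psmb7 rose by 0.62 ± 0.18 (adjusted p = 0.00767) although its treatments overlapped, with 11.01, 11.77 and 11.69 against 10.57, 10.96 and 11.06 in DMSO cells, and it was not called in the fit of only the groups compared (adjusted p = 0.0657). Psmb5 had 12.70, 12.72 and 12.59 against 12.68, 12.74 and 12.71, with overlap (−0.04 ± 0.07, adjusted p = 0.65).

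Among the chaperones, Psmd9 had 9.76, 9.78 and 9.93 in monuron-labelled cells at 72 h and 8.38, 8.66 and 8.97 in DMSO cells. That is 2.22-fold higher (1.15 ± 0.13, adjusted p = 1.91e-06), and the DMSO arrays differed among themselves by more than the monuron-labelled ones. Psmg2, which helps to form the alpha ring, had 10.24, 10.55 and 10.63 against 9.34, 9.46 and 9.87 in DMSO cells (0.92 ± 0.14, 1.89-fold, adjusted p = 4.41e-05). Psmg4, a further chaperone of the core, had 11.19, 11.28 and 11.15 against 10.62, 10.71 and 10.79 (0.50 ± 0.10, adjusted p = 0.000394). Psmd10, a chaperone of the 19S base also known as gankyrin, had 9.72, 9.61 and 9.82 against 8.46, 9.23 and 9.34 (0.71 ± 0.18, adjusted p = 0.00245). For all 6 called chaperones the treatments did not overlap. Of the 46 genes 15 were apart upward and 10 downward at 72 h, against 28.6% and 29.4% of all 9042 genes. Psmg1 and Psmg3 rose by 0.29 and 0.31. Psmd4, a ubiquitin receptor of the 19S particle, rose by 0.70 ± 0.13 (adjusted p = 0.000292). Psme3ip1, which matches by name only, had 9.54, 9.57 and 9.5 in monuron-labelled cells against 9.01, 9.18 and 8.96 in DMSO cells, without overlap (0.49 ± 0.09, adjusted p = 0.000248).

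**Figure D2:**
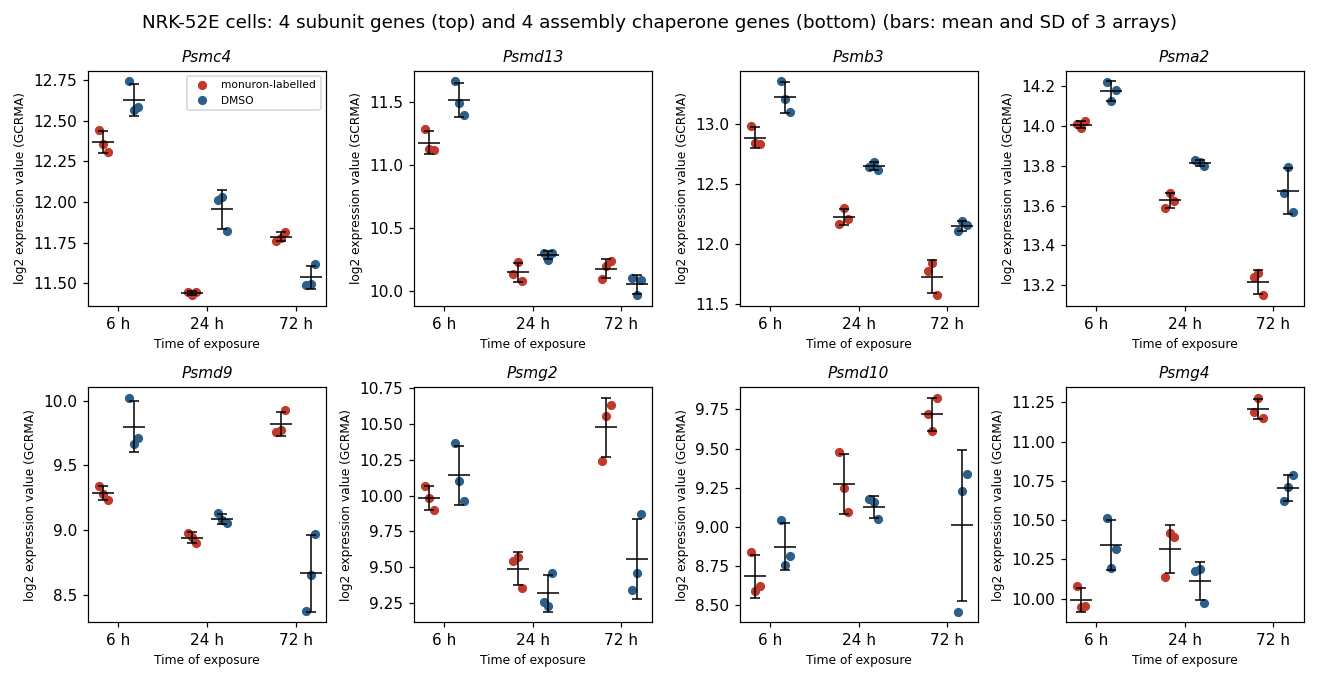
Log2 expression values (vertical axis) of 4 subunit genes (top row) and 4 assembly chaperone genes (bottom row) on each NRK-52E array at 6, 24 and 72 h (horizontal axis), monuron-labelled in red and DMSO in blue; bars give the mean and SD of 3 arrays. Psmb3 and Psma2 are lower on the monuron-labelled arrays at all times, Psmc4 is lower at 6 h and 24 h and higher at 72 h, and the 4 chaperones are higher at 72 h.

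Probe sets of 1 gene did not always move alike at 72 h. Psme4, the PA200 activator, had 10.88, 11.05 and 11.29 in monuron-labelled cells and 10.51, 10.35 and 10.38 in DMSO cells on the probe set used, without overlap. It rose by 0.66 ± 0.11 there (adjusted p = 6.09e-05) and differed by 0.70 on a second one, but by −0.98 on a further one, and the mean of its probe sets differed by 0.12 (adjusted p = 0.399). Psmd7, a lid subunit, rose by 0.25 on one probe set and differed by −0.24 on the other. Psmc6, an ATPase that was not called, differed by 0.23 on the probe set used and by −0.51 and −0.41 on the other 2. The second probe set of Psmd9 lay below the median on all 6 arrays and differed by 0.15. The directions of Psme4, Psmd7 and Psmc6 at 72 h therefore depend on the probe set. Other genes with several probe sets are Psmb5, Psmc4, Psmd11, Psmd14 and Psme1. For Psmd11 the probe set used differed by 0.03 at 24 h and −0.06 at 72 h, and a further one above the median by −0.19 and −0.31. For Psmd14 the one used differed by −0.09 at 24 h and a further one by −0.37, and both differed by 0.11 at 72 h.

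DMSO replicate 3 at 72 h lay nearest to the monuron-labelled mean for 19 of the 26 called members (73.1%), and for 69.3% of all called genes. Without it 21 members were higher, and the number lower stayed between 9 and 12 whichever cell array was left out. Markers outside the family also moved at 72 h: Cd68 differed by 2.30 and Cd14 by −0.80, the 2 immune cell markers tested of 23 on the array, and Krt8 of the epithelial list by −1.11. The mean level of the immune list lay between 2.90 and 2.92 on the monuron-labelled arrays and between 2.77 and 2.82 on the DMSO arrays, without overlap. Without overlap too, the mean of the proximal tubule list lay between 2.48 and 2.61 on the monuron-labelled arrays and between 2.76 and 3.07 on the DMSO arrays. That of the epithelial list lay between 6.18 and 6.21 and between 6.26 and 6.51 on the same arrays. Most tubule and immune markers were dim. Of 8 tubule markers, 7 lay below the median on all monuron-labelled arrays and 6 on all DMSO arrays, and of 23 immune markers 21 and 22 did. Ggt1, the only tubule marker tested, differed by 0.37 without a call. The part of these markers in the members' differences was not tested.

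The change of the treatment difference between times was tested as an interaction. Between 6 h and 24 h it was called for 0 of the 46 genes in limma, against 1.22% of all genes (0.641% upward, 0.575% downward). At an unadjusted p under 0.05 there were 6 of the 46 (3 in each direction), against 1693 of all 9042 genes (835 upward, 858 downward). With the replicate number as a block, 3 of the 46 were called upward. Between 24 h and 72 h it was called for 20 genes, 18 upward (39.1%) and 2 downward, against 18.3% upward and 19.6% downward over all genes (37.9% called). At an unadjusted p under 0.05, 2090 of all 9042 genes changed upward and 2177 downward. Of the 17 subunits of the 19S particle with a Psm symbol 10 changed upward and 0 downward in limma (12 upward and 0 downward at that unadjusted threshold). Psmc4 shows this in its arrays: 11.45, 11.43 and 11.44 stood below the DMSO arrays at 24 h, and 11.76, 11.78 and 11.82 stood above the DMSO values of 11.49, 11.50 and 11.62 at 72 h (change 0.76 ± 0.10, adjusted p = 6.17e-05). The change was 1.30 ± 0.18 for Psmd9 (adjusted p = 9.16e-05), 1.01 ± 0.15 for Psme4 (0.000155), 0.58 ± 0.11 for Psmc5 (0.000753) and 0.39 ± 0.07 for Psmb4 (0.000835). The 2 downward genes were Psma2 (−0.27) and Psme1 (−0.33). These interactions share the 24 h and 72 h arrays with the differences above.

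Of the 3 immunoproteasome genes, Psmb8 rose at 24 h and 72 h, and Psmb9 and Psmb10 were not called at any time in the fit of all cell groups. Psmb8, which replaces Psmb5, stood near the array median at 6 h: 4.30, 3.73 and 4.11 in monuron-labelled cells and 4.39, 4.30 and 4.27 in DMSO cells, of which 5 of 6 arrays were above the median. At 24 h it had 5.82, 6.00 and 5.84 against 4.77, 5.21 and 4.51 in DMSO cells (1.06 ± 0.31, 2.08-fold, adjusted p = 0.0346). At 72 h it had 8.34, 9.16 and 8.78 against 5.33, 6.89 and 6.40 (2.56 ± 0.31, 5.88-fold, adjusted p = 5.03e-06), the highest difference of the family. The treatments overlapped at 6 h and were apart at 24 h and 72 h, and the difference grew between them (adjusted p = 0.0136 for the interaction). The call at 24 h was lost without the filter on dim probe sets (adjusted p = 0.0632) and without any 1 of the monuron-labelled arrays or of the DMSO replicates 1 and 3 at that time. Over all 3 times the DMSO level of Psmb8 also moved, which is taken up below.

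Psmb9, which replaces Psmb6, had 10.30, 10.54 and 10.41 in monuron-labelled cells at 72 h and 10.15, 10.30 and 10.39 in DMSO cells. The treatments overlapped, and the difference was 0.14 ± 0.11 (adjusted p = 0.283). At 24 h it had 10.11, 10.15 and 10.13 against 9.94, 10.02 and 9.78 in DMSO cells, apart but not called (0.22 ± 0.11, adjusted p = 0.195, and 0.0427 in the fit of only the groups compared). At 6 h it had 8.90, 8.69 and 8.72 against 9.27, 8.88 and 8.97, with overlap (−0.27 ± 0.11, adjusted p = 0.148). The change of the Psmb9 difference between 6 h and 24 h was 0.48 ± 0.15 (adjusted p = 0.121).

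Psmb10, which replaces Psmb7, had 8.34, 8.47 and 8.50 at 72 h against 8.27, 8.32 and 8.22 in DMSO cells, narrowly apart (0.17 ± 0.18, adjusted p = 0.43). At 24 h Psmb10 had 7.90, 7.61 and 7.82 against 8.08, 8.29 and 7.59, with overlap (−0.21 ± 0.18, adjusted p = 0.463). At 6 h it had 8.10, 7.96 and 8.0 against 8.90, 8.12 and 8.35, apart but not called (−0.44 ± 0.18, adjusted p = 0.155). The PA28 genes went the other way from Psmb8 at 72 h. Psme1, which encodes PA28 alpha, had 12.27, 12.32 and 12.10 against 12.71, 12.62 and 12.50 in DMSO cells (−0.38 ± 0.07, adjusted p = 0.000243), and Psme2, which encodes PA28 beta, had 11.55, 11.60 and 11.51 against 12.03, 11.95 and 11.83 (−0.39 ± 0.09, adjusted p = 0.00198). Both were fully apart. At 6 h Psme2 had 11.46, 11.25 and 11.31 against 11.90, 11.62 and 11.48 in DMSO cells (−0.33 ± 0.09, adjusted p = 0.0479). That call was lost without the filter on dim probe sets (adjusted p = 0.0678), without a mean-variance trend (0.0672), on the mean of probe sets (0.0537), in the fit of only the groups compared (0.0615) and in 13 of the fits that left out 1 cell array, with an adjusted p of up to 0.233. Psme1 had 12.15, 12.00 and 11.99 at 6 h against 12.19, 12.11 and 12.07 in DMSO cells, with overlap (−0.08 ± 0.07, adjusted p = 0.562). At 24 h Psme1 had 12.64, 12.60 and 12.60 against 12.64, 12.72 and 12.65 (−0.06 ± 0.07, adjusted p = 0.637), and Psme2 had 11.84, 11.93 and 11.98 against 12.08, 11.98 and 12.12 (−0.15 ± 0.09, adjusted p = 0.317). Neither PA28 gene was called at 24 h.

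**Figure D3:**
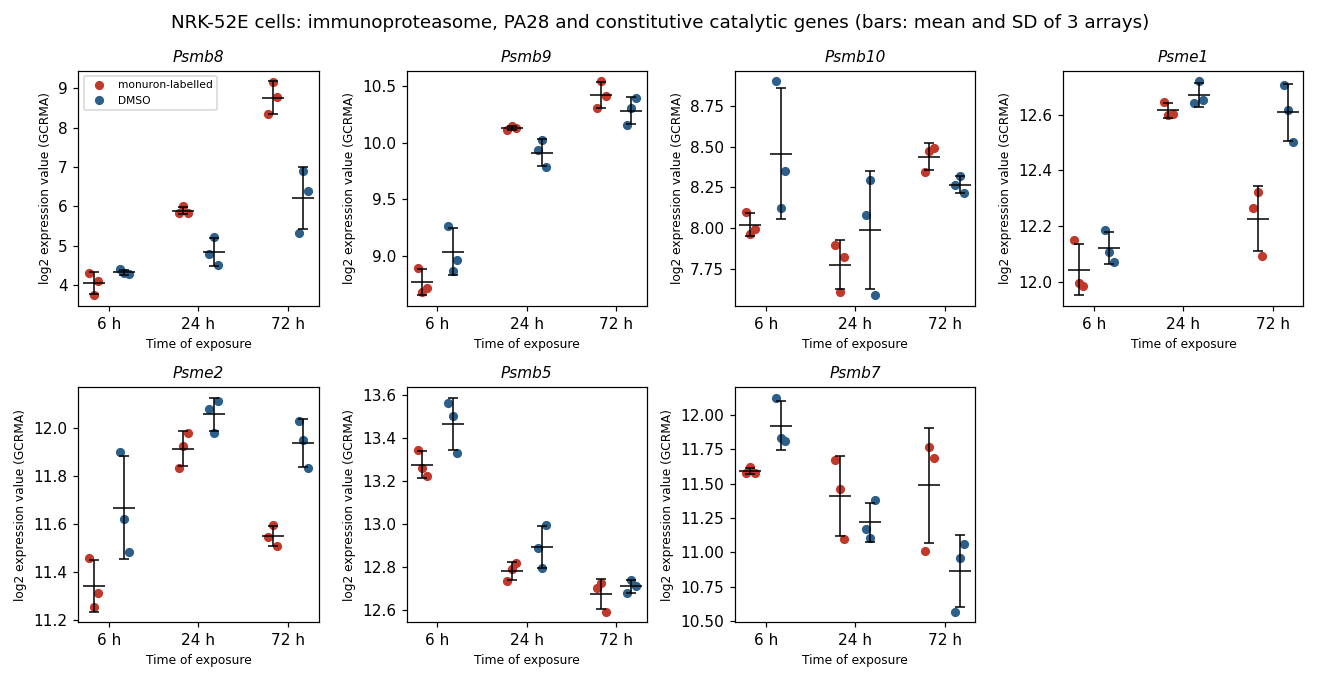
Log2 expression values (vertical axis) of Psmb8, Psmb9, Psmb10, Psme1, Psme2, Psmb5 and Psmb7 on each NRK-52E array at 6, 24 and 72 h (horizontal axis), monuron-labelled in red and DMSO in blue; bars give the mean and SD of 3 arrays, and each panel has its own scale. Psmb8 climbs in both treatments and stands higher on the monuron-labelled arrays at 24 h and 72 h, Psmb9 climbs in both, and Psme1 and Psme2 are lower on the monuron-labelled arrays at 72 h.

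The stretch from 250 bases before to 50 bases after the gene start was available in RefSeq (GRCr8) for 42 of the 46 genes and was searched on both strands for 4 short motifs. These were the core of the interferon-stimulated element (GAAA, 2 bases of any kind and GAAA again), TTCNNNGAA of gamma-activated sites, TGACNNNGC of antioxidant response elements, and CCAAT. The interferon-stimulated core was found in 3 of the 5 immunoproteasome and PA28 genes (Psmb8, Psmb10 and Psme2), in 7 of all 42 (16.7%) and in 3.92% of 33469 rat stretches of this length. TGACNNNGC was found in 7 of 42 (16.7%) against 12.1%, TTCNNNGAA in 4 (9.52%) against 8.87%, and CCAAT in 22 (52.4%) against 37.5%. Of the 23 matched genes that fell at 6 h or 24 h, 5 held the interferon-stimulated core (21.7%), 6 TGACNNNGC (26.1%), 2 TTCNNNGAA (8.7%) and 12 CCAAT (52.2%). Below are Psmb8 and Psmb10, which share the interferon-stimulated core but of which only Psmb8 had a called treatment difference, and Psmd9, the chaperone with the largest rise and 2 TGACNNNGC matches. Capitals mark the matches, which did not overlap each other, and the sequences read 5′ to 3′ along the gene.
Psmb8 (chr20:4656982-4657281, minus strand): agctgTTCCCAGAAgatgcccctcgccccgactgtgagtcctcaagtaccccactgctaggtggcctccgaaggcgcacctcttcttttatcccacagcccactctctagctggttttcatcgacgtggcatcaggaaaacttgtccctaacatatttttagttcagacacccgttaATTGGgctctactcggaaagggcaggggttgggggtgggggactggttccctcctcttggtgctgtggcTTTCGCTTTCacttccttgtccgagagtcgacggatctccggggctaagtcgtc
Psmb10 (chr19:50743243-50743542, minus strand): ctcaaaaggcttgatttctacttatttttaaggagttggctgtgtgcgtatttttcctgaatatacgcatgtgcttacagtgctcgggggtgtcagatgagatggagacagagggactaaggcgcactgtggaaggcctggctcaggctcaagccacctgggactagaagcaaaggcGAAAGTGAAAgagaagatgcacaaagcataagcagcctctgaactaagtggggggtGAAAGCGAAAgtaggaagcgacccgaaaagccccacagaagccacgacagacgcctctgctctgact
Psmd9 (chr12:39018215-39018514, minus strand): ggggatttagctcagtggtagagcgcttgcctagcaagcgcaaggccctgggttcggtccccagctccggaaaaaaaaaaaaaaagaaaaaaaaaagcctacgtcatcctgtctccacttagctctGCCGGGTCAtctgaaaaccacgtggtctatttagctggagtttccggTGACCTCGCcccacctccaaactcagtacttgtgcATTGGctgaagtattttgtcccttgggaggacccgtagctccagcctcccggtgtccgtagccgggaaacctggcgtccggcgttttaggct

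In Psmb8 the capitals are TTCNNNGAA, CCAAT on the opposite strand and, across the gene start, the interferon-stimulated core on the opposite strand. In Psmb10 they are 2 copies of the interferon-stimulated core, and in Psmd9 TGACNNNGC on either strand and CCAAT on the opposite one. A match describes these letters only. Psmb9, whose level climbed in culture without a called treatment difference, held CCAAT alone among the 4 motifs.

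In DMSO cells the family itself changed with time in culture. Between 6 h and 24 h, 35 of the 46 genes fell and 3 rose, against 28.3% lower and 24.8% higher of all genes (53.1% called). Between 6 h and 72 h, 36 fell (78.3%) and 5 rose (10.9%), against 35% lower and 26.9% higher (61.9% called). The median difference of 72 h minus 6 h was −0.69, against −0.08 over all genes. All 17 subunits of the 19S particle with a Psm symbol fell, as did 12 of the 13 alpha and constitutive beta subunits, Psma3 being the exception. The 5 that rose were Psmb8, Psmb9, Psme1, Psme2 and Psmg4. This comparison was added after the values were seen, its 6 h arrays are also the controls of the 6 h treatment difference, and time in culture cannot be told apart from anything else that differed between the times.

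Psmd13, a lid subunit, had 11.66, 11.49 and 11.39 in DMSO cells at 6 h, 10.30, 10.24 and 10.30 at 24 h and 10.10, 9.96 and 10.09 at 72 h (72 h minus 6 h −1.46 ± 0.08, adjusted p = 6.62e-10). Psmd7 of the lid had 13.09, 12.97 and 13.01 at 6 h, 12.10, 12.09 and 11.93 at 24 h and 11.26, 11.56 and 11.63 at 72 h (−1.54 ± 0.10, adjusted p = 2.48e-09). No array at 72 h reached any at 6 h in either gene. In monuron-labelled cells Psmd13 had 11.28, 11.13 and 11.12 at 6 h and 10.09, 10.20 and 10.24 at 72 h, a drop of the same kind that was not tested. The constitutive catalytic genes fell as well, Psmb5 by 0.76 and Psmb7 by 1.06 on the log2 scale in DMSO cells.

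Psmb9 went up over the same arrays, with 9.27, 8.88 and 8.97 at 6 h, 9.94, 10.02 and 9.78 at 24 h and 10.15, 10.30 and 10.39 at 72 h (72 h minus 6 h 1.24 ± 0.11, 2.36-fold, adjusted p = 7.7e-08). Psmb8 had 4.39, 4.30 and 4.27 at 6 h and 5.33, 6.89 and 6.40 at 72 h (1.89 ± 0.31, adjusted p = 6.16e-05). Both were higher on every later array. Psmb10 differed by −0.19 ± 0.18 (adjusted p = 0.376). For 24 h minus 6 h Psmb10 was called lower in DMSO cells (−0.47), with overlap. That call was lost with the replicate number as a block (adjusted p = 0.0558 in limma) and without DMSO replicate 1 at 6 h (adjusted p = 0.239). Psme1 rose by 0.49 ± 0.07 (adjusted p = 1.85e-05) and Psme2 by 0.27 ± 0.09 (adjusted p = 0.0193). The number of genes higher at 72 h was 3 with the replicate block or with centred arrays, where Psme2 was no longer called.

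In kidney, 5 of the 46 genes fell in monuron rats and none rose. The 5 made up 10.9%, against 6.34% of 9542 genes that fell (10.2% called, 3.87% higher), and the median difference was −0.15 against −0.08 over all genes. At an unadjusted p under 0.05, 19 were lower and 0 higher in limma. Over all 9542 genes, 1926 were lower and 891 higher at this threshold. Of the 5, 3 were assembly chaperones. Psmd5, a chaperone of the 19S base, had 10.11, 9.94, 9.93 and 10.12 in monuron rats and 10.68, 10.57, 10.61 and 10.32 in corn oil rats (−0.52 ± 0.09, adjusted p = 0.00935). Psmd9 had 7.43, 7.57, 7.43 and 7.51 against 7.88, 8.04, 8.11 and 7.75 (−0.46 ± 0.10, adjusted p = 0.0248). Both were fully apart. Psmg2 had 9.38, 9.39, 9.55 and 9.52 against 9.72, 9.90, 9.86 and 9.77 (−0.35 ± 0.07, adjusted p = 0.0193). The ATPase Psmc2 had 12.81, 12.78, 12.86 and 12.93 against 13.10, 13.04, 13.14 and 13.08 (−0.25 ± 0.05, adjusted p = 0.0188), and the alpha subunit Psma6 13.25, 13.21, 13.29 and 13.31 against 13.36, 13.52, 13.47 and 13.52 (−0.20 ± 0.05, adjusted p = 0.0423). None of these overlapped between treatments. In that direction 14 of the 46 genes were apart, against 13.6% of all genes (upward 0 members, against 5.74%).

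The kidney calls depended on single arrays and settings. There were 2 without monuron replicate 1 or 3, 10 without monuron replicate 4, 3 without corn oil replicate 2 and 1 without corn oil replicate 3. Monuron replicate 4 was the highest of its group for 32 of the 46 genes. Psmd9 was not called on the mean of its probe sets (−0.19, adjusted p = 0.107), and without a mean-variance trend 3 genes were lower. In the same fit 3 of 8 proximal tubule markers and 2 of 7 tested immune markers rose. Of the 7 immune differences 4 were positive and 3 negative, with Cd14 the lowest at −0.85 and not called. The mean immune level was 3.97 to 4.12 in monuron kidneys and 3.91 to 4.05 in corn oil kidneys, which overlapped. The mean level of the proximal tubule list was 13.39 to 13.51 in monuron kidneys and 13.01 to 13.15 in corn oil kidneys, without overlap. Their part in the result was not tested. The immunoproteasome genes were not called: Psmb8 had 6.73, 7.41, 6.60 and 7.17 in monuron kidneys and 7.38, 6.76, 7.22 and 7.31 in corn oil kidneys, widely overlapping (−0.19 ± 0.20, adjusted p = 0.574). Psmb9 had 9.03, 9.02, 8.77 and 9.06 against 8.81, 9.00, 9.15 and 9.37 (−0.11 ± 0.12, adjusted p = 0.593). Psmb10 had 7.09, 7.46, 7.16 and 7.54 against 7.31, 7.33, 7.39 and 7.26 (−0.01 ± 0.12, adjusted p = 0.962). Both overlapped, and the corn oil values of Psmb10 lay within the range of the monuron values. Psmb5 had 12.03, 12.12, 11.92 and 12.13 against 12.14, 12.17, 12.04 and 12.06 (−0.05 ± 0.06, adjusted p = 0.616), and Psmb7 had 11.16, 11.16, 11.19 and 11.31 against 11.15, 11.19, 11.35 and 11.36 (−0.06 ± 0.07, adjusted p = 0.616). Psme1 had 12.51, 12.63, 12.29 and 12.50 against 12.38, 12.41, 12.70 and 12.76 (−0.08 ± 0.10, adjusted p = 0.646), and Psme2 had 10.93, 10.97, 10.76 and 10.76 against 10.85, 11.00, 10.97 and 10.95 (−0.09 ± 0.07, adjusted p = 0.433). The groups overlapped in each of these 4 genes.

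In liver, 3 of the 46 genes fell in monuron rats and none rose. The 3, all of the 19S base, made up 6.52%, against 2.02% of 9361 genes that fell (3.12% called, 1.1% higher). The median difference was −0.12 against −0.07. At an unadjusted p under 0.05, 17 were lower and 0 higher in limma. Over all 9361 genes, 1575 were lower and 669 higher at this threshold. The ATPase Psmc3 had 11.59, 11.58, 11.54 and 11.59 in monuron livers and 11.92, 11.88, 11.98 and 11.98 in corn oil livers (−0.37 ± 0.06, adjusted p = 0.0177). Psmd2, the second large scaffold of the base, had 11.16, 11.19, 11.23 and 11.32 against 11.61, 11.53, 11.57 and 11.49 (−0.33 ± 0.06, adjusted p = 0.0358). Psmc2 had 12.55, 12.54, 12.71 and 12.67 against 12.98, 12.89, 12.87 and 12.98 (−0.32 ± 0.06, adjusted p = 0.0366). All 3 were fully apart. Downward, 13 of the 46 genes were apart, against 9.93% of all genes. The count was 0 without a mean-variance trend, 0 without monuron replicate 1 or 3 or corn oil replicate 1 or 4, 1 without monuron replicate 2 or corn oil replicate 2, and 5 without corn oil replicate 3.

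Psmb8 stood far above the array median in liver, with 11.67, 11.73, 11.62 and 11.89 in monuron rats and 11.04, 11.37, 11.49 and 11.81 in corn oil rats. The groups overlapped (0.30 ± 0.15, adjusted p = 0.248). Psmb9 had 11.41, 11.46, 11.31 and 11.57 against 11.29, 11.23, 11.40 and 11.65 (0.04 ± 0.10, adjusted p = 0.845). Psmb10 had 9.44, 9.81, 9.56 and 10.39 against 9.69, 9.79, 9.94 and 10.03 (−0.06 ± 0.19, adjusted p = 0.881). Both overlapped, as did the PA28 genes. Psme1 had 13.03, 13.14, 13.00 and 13.27 against 13.14, 13.28, 13.33 and 13.38 (−0.17 ± 0.08, adjusted p = 0.225), and Psme2 had 11.92, 12.20, 12.06 and 12.43 against 12.26, 12.21, 12.11 and 12.29 (−0.06 ± 0.10, adjusted p = 0.746). Of the constitutive catalytic genes, Psmb5 had 11.95, 11.94, 11.96 and 11.93 in monuron livers and 12.06, 12.14, 12.19 and 12.24 in corn oil livers, apart but not called (−0.22 ± 0.06, adjusted p = 0.0766), and Psmb7 had 11.47, 11.60, 11.59 and 11.51 against 11.60, 11.66, 12.03 and 11.94, also just apart (−0.26 ± 0.10, adjusted p = 0.159). The mean level of 23 immune markers was 5.37 to 5.56 in monuron livers and 5.21 to 5.29 in corn oil livers, without overlap. Of the 13 tested 0 were called, against 3.12% of all genes. Of the 23, 9 lay below the median on all monuron arrays and 10 on all corn oil arrays. The part of these markers in the members' differences was not tested. The treatment differences of liver and kidney were compared in 1 fit of both organs. In limma 0 of the 46 genes were called, against 2.68% of 10114 genes (1.09% upward, 1.59% downward). At an unadjusted p under 0.05 there were 3 of the 46 (1 upward and 2 downward), against 1665 of the 10114 (753 upward, 912 downward). The protocol takes livers and kidneys from the same rats, which the fit treats as separate samples because the labels do not tie arrays to rats.

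**Figure D4:**
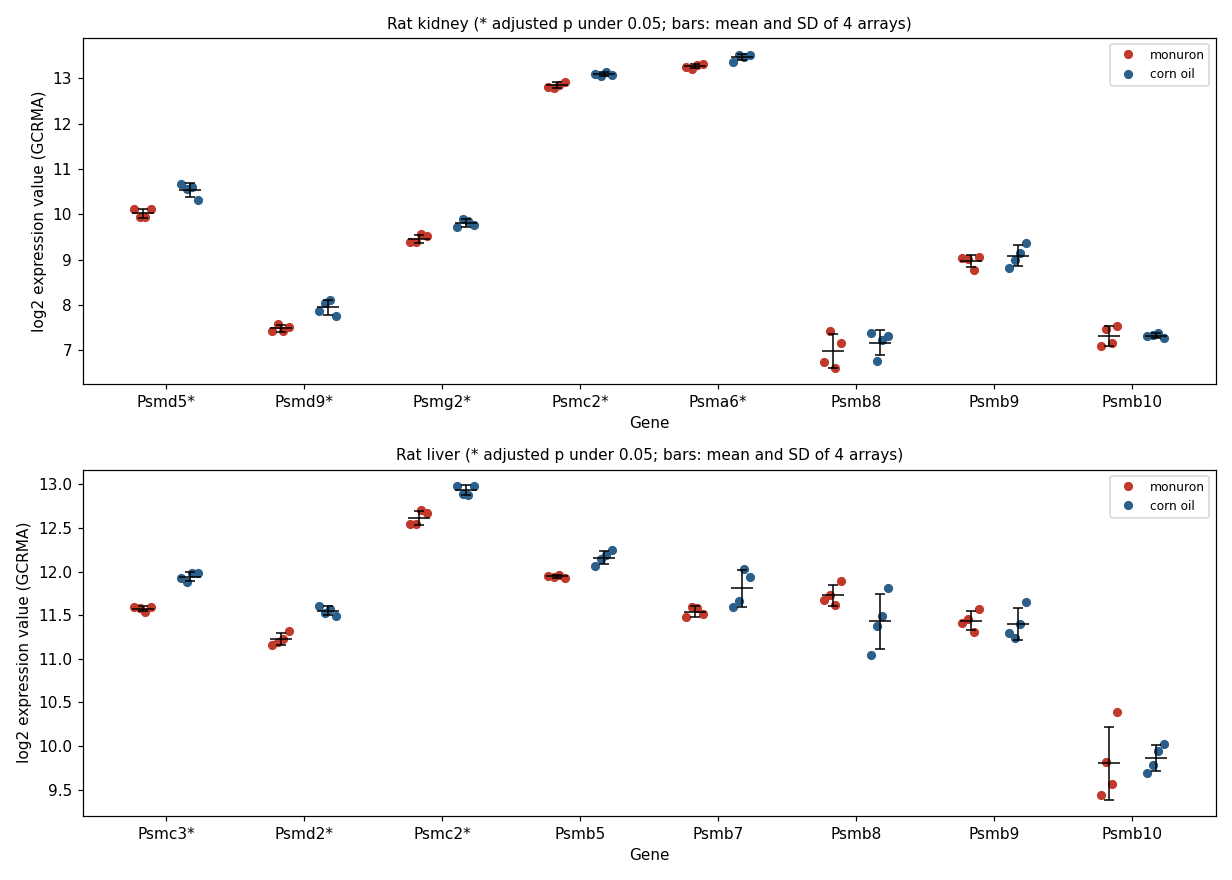
Log2 expression values (vertical axis) on each array of monuron rats (red) and corn oil rats (blue) for the called members and the immunoproteasome genes in kidney (top), and for the called members, Psmb5, Psmb7 and the immunoproteasome genes in liver (bottom); bars give the mean and SD of 4 arrays, and stars mark an adjusted p under 0.05. The 5 starred genes in kidney and 3 in liver are lower on every monuron array, while Psmb8, Psmb9 and Psmb10 overlap in both organs.

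Partners of the proteasome outside the family were read from a list of regulators, receptors, deubiquitinases and ubiquitin factors, 30 of which were tested in the cells. At 6 h 0 rose and 2 fell (6.67%, against 3.02% of all genes that fell). At 24 h 2 rose (6.67%, against 6.43%) and 5 fell (16.7%, against 7.14%). At 72 h 16 rose (53.3%, against 30.7%) and 4 fell (13.3%, against 30.9%), and the median difference of the list was 0.34, against 0.01 over all genes. Pomp, the maturation factor of the core, fell at 6 h (−0.27 ± 0.06, adjusted p = 0.0141) and differed by −0.04 at 72 h. Vcp, the segregase that extracts ubiquitinated proteins, fell at 24 h (−0.42 ± 0.09, adjusted p = 0.00902). At 72 h the ubiquitin receptor Adrm1 rose by 0.57 and the protease Ddi2, which activates Nfe2l1, rose by 0.29, while the deubiquitinase Usp14 fell by 0.21 on the log2 scale. Nfe2l1, a transcription factor of proteasome genes, differed by 0.12 at 6 h, 0.28 at 24 h (adjusted p = 0.0575) and 0.18 at 72 h, without a call. In DMSO cells it rose by 0.63 between 6 h and 72 h, over arrays on which Pomp fell by 0.71 and Adrm1 by 1.01. Of the list, 0 rose and 2 fell in kidney (6.67%, against 6.34%), and in liver 0 rose and of 29 tested genes Adrm1 alone fell (3.45%, against 2.02%; −0.52 ± 0.11, adjusted p = 0.0412).

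A list of interferon gamma and antigen presentation genes had 13 tested members in the cells, of which 0 rose and 1 fell at 6 h (7.69%, against 3.02% of all genes that fell) and 1 rose and 0 fell at 24 h (7.69%, against 6.43% that rose). At 72 h 7 rose (53.8%, against 30.7%) and 5 fell (38.5%, against 30.9%), with a median difference of 0.41, against 0.01 over all genes. Tap1, a subunit of the peptide transporter, rose by 1.34 ± 0.19 at 72 h (adjusted p = 2.45e-05) and Tap2 by 0.62 ± 0.18, beside the rise of Psmb8. The transcription factor Irf1 fell by 0.80 ± 0.17 (adjusted p = 0.000945) and the interferon-inducible GTPase Igtp by 2.46 ± 0.21 (adjusted p = 2.56e-07). B2m differed by 0.01 at 72 h, and in DMSO cells it rose by 0.98 between 6 h and 72 h. In liver 2 of 24 tested genes of the list rose (8.33%, against 1.1% of all genes) and 0 fell. In kidney 0 of 21 were called in limma, with 2 at an unadjusted p under 0.05, against 2817 of all 9542 genes.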

How the data were processed

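RNA was measured on 34 Affymetrix rat arrays. For each probe set the authors deposited a log2 expression value made with GCRMA (background correction, normalization across arrays, probe summary), per the submitters' processing notes; the sources used here do not give its version. Probe sets with several symbols were left out and each gene was read from its brightest probe set. A gene was tested if above the array median on at least 3 (cells) or 4 (organs) arrays. limma 3.58.1 in R 4.3.3 fitted all groups of the cells, or of an organ, together (lmFit, eBayes with a trend), with p-values adjusted over all genes; the fits were tested on simulated data. Array values have no read depth. The members, lists and tests were chosen with earlier results of these data known. Values per array are given for the catalytic, immunoproteasome and PA28 genes and for up to 6 further members per treatment comparison with the smallest adjusted p; others named for their role or probe sets were picked after their values were seen. The main fits did not pair arrays. Replicate numbers, from the sample titles, served as a block only in an alternative fit. Deviations of same-numbered arrays correlated at 0.20 to 0.49 at 6 h and 0.17 to 0.32 at 72 h. Pairs with unlike numbers reached 0.30 at 6 h and 0.27 at 72 h. The best match had the same number for 4 of 6 arrays at 6 h and 4 of 6 at 72 h. This was so for 0 arrays at 24 h, in kidney and in liver, where same-numbered pairs went down to −0.12, −0.22 and −0.16. Alternatives were other scaling, filters, probe summary, variance prior, blocks, fits and left-out arrays.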

Additional observations from a re-analysis of the deposited data

Results flagged for a closer look

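In groups of 4 arrays, 11 of 184 member groups had 1 array far from the other 3, close to the 1 in 20 that chance gives. In monuron kidneys these were Psma3 (9.90 on replicate 4), Psmd10 (9.75 on replicate 4), Psmb9 (8.77 on replicate 3), Psme3ip1 (8.94 on replicate 1) and Psmg3 (7.78 on replicate 2), and in corn oil kidneys Psmc5 (10.46 on replicate 3). In monuron livers they were Psmb4 (13.45) and Psmc3 (11.54), both on replicate 3. In corn oil livers they were Psmb1 (12.78), Psmb3 (12.04) and Psme3ip1 (7.81), all on replicate 3.

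The treatment difference in cells changed between 24 h and 72 h, by the interaction term, for the members with the smallest adjusted p: Psmc4 (0.76), Psmd9 (1.30), Psme4 (1.01), Psmc5 (0.58) and Psmb4 (0.39). For Psme4 another probe set differed by −0.98 at 72 h.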

How the results depend on the processing

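With the replicate number as a block, the lower count was 23 at 6 h, 1 in kidney and 0 in liver, 3 members had a raised difference between 6 h and 24 h, and 3 were higher in DMSO cells at 72 h than at 6 h; other counts of calls stayed within 1.5 times. By the labels, same-numbered arrays share only the number, at every time and in both organs. Centring arrays gave 7 lower members at 72 h, 0 with a lowered difference between 24 h and 72 h, and 3 higher in DMSO cells at 72 h. Without the filter, 0 were higher at 24 h. Without a mean-variance trend, 9 were lower at 6 h, 3 in kidney and 0 in liver. The mean of probe sets left 1 lowered difference between 24 h and 72 h. Fits of only the compared groups gave 3 higher at 24 h and 7 lower at 72 h. Without any 72 h array, 24 were lower at 6 h and 2 higher at 24 h. The causes were not tested.

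Leaving out 1 array gave 0 to 21 lower and 0 higher at 6 h, 10 to 20 lower and 0 to 1 higher at 24 h, 9 to 12 lower and 12 to 21 higher at 72 h, 1 to 10 lower and 0 higher in kidney, and 0 to 5 lower and 0 higher in liver. For the change between 6 h and 24 h it gave 0 to 2 upward and 0 to 1 downward, between 24 h and 72 h 15 to 21 upward and 1 to 3 downward, and for liver minus kidney 0 to 1 upward and 0 downward. In DMSO cells, 24 h minus 6 h kept 33 to 37 lower and 3 higher, and 72 h minus 6 h 36 to 37 lower and 4 to 6 higher. Of 2066 values of named members under alternatives, 96 lost their call, 5 gained one and 0 with a call in either fit reversed. A further 14, called neither in the main fit nor in the alternative, changed sign.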
